A study of Mus musculus with 19 samples.

Results

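The 45 genes described here act in G2 phase and mitosis, the steps in which a cell checks its copied genome and divides it between daughter cells. They form a list of cyclins, kinases, checkpoint proteins, kinesins and spindle proteins named by their function. All 45 were found among the 24210 named genes of the count table, and 37 of them held enough reads to be tested. Each gene was read from its RefSeq accession with the highest mean count. The list was chosen with earlier results of these data known. Their RNA was measured in 19 libraries of lin- Sca+ cKit+ (LSK) cells, the bone marrow compartment that holds stem cells and early progenitors, sorted from C57BL/6 mice and not cultured. The WT group had 4 libraries of untreated wild-type mice. The IDH2-FLT3 groups came from leukemic mice that carry the R140Q form of Idh2 together with Flt3-ITD, an activating internal duplication in a growth factor receptor. They had 3 libraries with vehicle and 4 with AG-221, a small molecule inhibitor of mutant IDH2 given by gavage 2 times a day for 4 to 5 weeks. The protocol names 100 mg/kg for single agent use and 40 mg/kg for combination use, and the labels do not say which applied to a library. The TET2-FLT3 groups came from leukemic mice that lack Tet2 (Tet2-/-) and carry the same Flt3 allele, which the labels spell Flt3-IDT. They had 4 libraries with vehicle and 4 with 5-Aza, a hypomethylating drug given by intraperitoneal injection in 4 cycles of 21 days, each with 5 daily doses of 5 mg/kg. The series' text calls this drug both 5-Azacytidine and Decitabine, which are different compounds. Every leukemic group thus carried the Flt3 allele, and the WT mice received no vehicle. The labels give no ages, and they do not say whether each library is a separate animal, so p-values measure the spread between libraries, which may be technical. Libraries keep the names of the count table, and values are always given in the order wt1, wt2, wt3 and wt4 for WT, V3, V3-2 and V9 for IDH2-FLT3 vehicle, and AG1, AG8, AG12 and AG13 for AG-221. The order is V1, V5, V5-2 and V19 for TET2-FLT3 vehicle and AZ10, AZ11, AZ16 and AZ17 for 5-Aza.

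Entry into mitosis is driven by Cdk1, a kinase that needs a cyclin partner and is opposed until G2 by inhibitory phosphorylation. Once chromosomes are attached to the spindle, a checkpoint releases Cdc20, which lets the anaphase-promoting complex mark cyclin B and other proteins for destruction. The RNAs of these genes rise together late in the cell cycle, and in marrow they mark dividing progenitors, while most long-term stem cells are at rest.

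The upstream sequences of these genes share short elements that control late cell cycle transcription. The cell cycle homology region reads TTTGAA in most genes, with TTCGAA as a second form, and is bound by the MuvB complex, and the CCAAT box is bound by NF-Y. The 130 bases that end just before the annotated start are shown for 4 members that were called in a comparison (Cdc20, Bub1b, Cks2 and Tacc3) and 4 others (Cdk1, Ccnb1, Ube2c and Top2a), 5′ to 3′ on the gene's strand. Capitals mark both forms of the homology region and the CCAAT box wherever they stand on either strand, so that a box on the opposite strand reads ATTGG. No match overlapped another in these stretches.
Cdc20: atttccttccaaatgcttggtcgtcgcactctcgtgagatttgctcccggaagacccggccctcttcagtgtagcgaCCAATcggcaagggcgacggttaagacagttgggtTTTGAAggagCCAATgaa
Bub1b: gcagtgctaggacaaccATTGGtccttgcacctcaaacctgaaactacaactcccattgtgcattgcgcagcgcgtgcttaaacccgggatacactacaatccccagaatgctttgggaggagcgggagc
Cks2: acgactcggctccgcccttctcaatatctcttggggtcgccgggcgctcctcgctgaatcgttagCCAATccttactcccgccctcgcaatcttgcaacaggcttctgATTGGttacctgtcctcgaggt
Tacc3: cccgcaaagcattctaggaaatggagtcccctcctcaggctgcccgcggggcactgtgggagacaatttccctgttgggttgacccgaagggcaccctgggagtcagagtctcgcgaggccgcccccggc
Cdk1: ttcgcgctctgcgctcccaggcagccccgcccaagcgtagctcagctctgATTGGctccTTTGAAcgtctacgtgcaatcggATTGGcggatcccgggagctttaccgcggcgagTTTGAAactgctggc
Ccnb1: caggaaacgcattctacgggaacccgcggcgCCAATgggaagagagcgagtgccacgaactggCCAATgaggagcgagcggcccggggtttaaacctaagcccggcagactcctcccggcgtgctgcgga
Ube2c: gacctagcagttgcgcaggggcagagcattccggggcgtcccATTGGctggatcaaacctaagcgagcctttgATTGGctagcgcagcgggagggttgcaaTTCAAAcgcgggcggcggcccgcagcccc
Top2a: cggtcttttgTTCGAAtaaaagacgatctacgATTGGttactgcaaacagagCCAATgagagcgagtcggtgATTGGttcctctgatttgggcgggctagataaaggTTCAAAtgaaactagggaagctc
The sequences are from RefSeq on GRCm38.p6 and not on the build of the counts. They lie at chr4:118437344-118437473 (minus strand) for Cdc20, chr2:118598081-118598210 (plus strand) for Bub1b, chr13:51645102-51645231 (plus strand) for Cks2 and chr5:33657998-33658127 (plus strand) for Tacc3. Those of the others lie at chr10:69352913-69353042 (minus strand) for Cdk1, chr13:100786487-100786616 (minus strand) for Ccnb1, chr2:164769799-164769928 (plus strand) for Ube2c and chr11:99024190-99024319 (minus strand) for Top2a. In these stretches Cdc20, Cdk1, Ube2c and Top2a held both kinds of motif, Bub1b, Cks2 and Ccnb1 held CCAAT alone, and Tacc3 held neither. Outside the stretch shown, Bub1b held TTTGAA at bases 41 to 46 from the start and TTCGAA at bases -188 to -183.

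In windows from 250 bases before to 50 after the start, 38 of the 45 members had an entry, with 42 windows in all. TTTGAA stood in 31 of these windows (73.8%), against 17.9% of all 32851 promoter windows, 13.2% of the windows of the S phase genes listed for comparison and 54.5% of those of a second list of mitosis genes. TTCGAA, its own reverse complement, stood in 9.52% of member windows and 1.56% of all. CCAAT stood in 81.0% of member windows, in 60.5% of S phase windows and in 37.4% of all. Either form of the homology region together with CCAAT was found in 29 member windows (69.0%), against 7.52% of all windows and 45.5% of those of the second mitosis list. These shares describe letters, and windows of 1 gene share bases. Binding at these sites was not measured.

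Whether a member could be read depended on how many accessions its gene has in the table. The 31 members with a single accession were all tested and had a median count of 2107 per library, with a lowest mean of 462 counts. Of the 14 members with 2 or more accessions 6 were tested, and their median was 2.92 counts. Tpx2, Bub1 and Prc1 were at 0 in every library. Aurka, Ttk, Cenpa, Ect2 and Gtse1 had mean counts between 0.895 and 3.42. Over all named genes 51.9% of those with 1 accession and 29.4% of those with more were tested. No statement is therefore made about these 8 members, and the low counts of Cdc25b, Birc5, Kif20a, Kif2c, Nusap1 and Ckap5, which also have 2 or more accessions, may miss reads in the same way.

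Depth and the state of the samples were as follows. Libraries held 9635795 to 20383132 counts, and no 2 libraries were copies of each other. Idh2 and Flt3 were read in every library, and Tet2 RNA was still present in the TET2-FLT3 libraries, at 58.7 to 156 CPM (counts scaled to a common library size) with vehicle and 36.4 to 107 with 5-Aza against 117 to 145 in WT. Whole-gene counts do not show which exons those reads cover. The sort markers Kit and Ly6a were at or near 0 throughout, both being genes with 2 or more accessions, so the gate cannot be checked from them. Stem cell genes were present, with Hlf read in all 19 libraries.

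Of the 5 groups, the members as a whole were lowest in WT and highest in IDH2-FLT3 vehicle and 5-Aza. Summed over the members, the level was 4860.0 ± 881 CPM (SD, n = 4) in WT and 7468 ± 1022 (n = 3) in IDH2-FLT3 vehicle. It was 5913 ± 1029 with AG-221, 6038 ± 659.7 in TET2-FLT3 vehicle and 7164 ± 630.2 with 5-Aza (n = 4 each). All 3 IDH2-FLT3 vehicle and all 4 5-Aza sums lay above the highest WT sum of 5641, whereas the AG-221 sums ran from 4668 to 7143 and those of TET2-FLT3 vehicle from 5184 to 6794. By group mean, WT was the lowest group for 27 of the 37 tested members and TET2-FLT3 vehicle for 8. IDH2-FLT3 vehicle was the highest for 22 and 5-Aza for 10. These orders were not counted over all tested accessions, so no share of all stands beside them. Top2a, with 15151 counts per library on average, made the largest contribution to the sum. In bulk RNA a smaller share of dividing cells and less of these RNAs per dividing cell cannot be told apart.

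**Figure D1:**
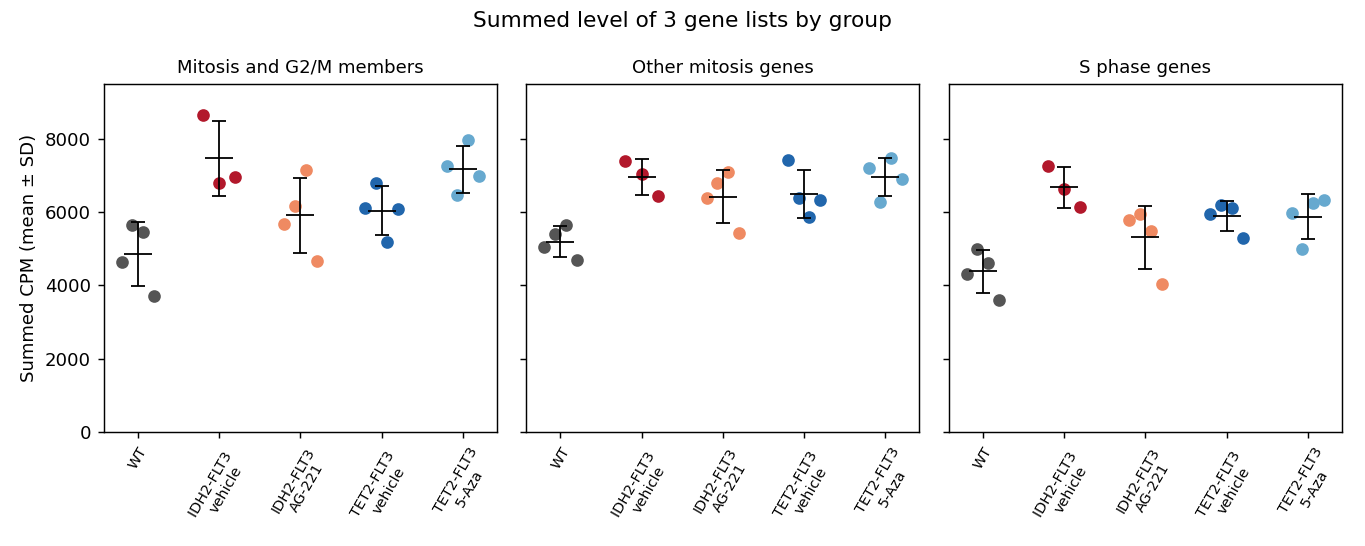
Summed CPM of the mitosis and G2/M members, of other mitosis genes and of S phase genes (y axis, linear from 0) in each library by group (x axis), with black bars for the mean ± SD. In the left panel every IDH2-FLT3 vehicle and 5-Aza library lies above all 4 WT libraries.

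Levels per transcript length differed widely among members. In WT, mean FPKM (fragments per kilobase of transcript, scaled to depth) was 299 ± 23.5 for Cks1b, 201 ± 48.2 for Ube2c and 195 ± 37.8 for Top2a (SD, n = 4), the 3 highest. At the other end of the single-accession members were Foxm1 at 12.4 ± 1.09 FPKM, Kif4 at 13.3 ± 1.45 and Anln at 14.9 ± 0.270. Foxm1 encodes a transcription factor of G2/M genes, Kif4 a chromosome-bound kinesin and Anln the cleavage furrow protein anillin.

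3 libraries stood apart, and many of the results that rest on them are given with and without them. V3-2 differed from V3, another IDH2-FLT3 vehicle library, much as V5-2 differed from V5 in TET2-FLT3 vehicle. Of the 37 members 36 differed in the same direction in both pairs, 23 lower and 13 higher in the libraries with the longer name. The rank correlation over the 37 members was 0.92, and over all 11830 tested accessions it was 0.87 with 84.8% in the same direction. For V9 against V3 and V19 against V5, the correlation over members was 0.29. Members share libraries and depth in these values, so the correlations only describe them. Foxm1 was 1.48 and 1.11 higher in V3-2 and V5-2 on the log2 scale, and Ccna2, the cyclin of S and G2 phase, 1.33 and 0.97 higher. Ccnb1, the main mitotic cyclin, gave -1.30 and -1.31. Both libraries were also the deepest, and the labels do not say how they relate to V3 and V5. The third, V1 of TET2-FLT3 vehicle, was low in long transcripts: against V5 and V19, the rank correlation of the difference with transcript length was -0.49 over the members and -0.37 over all tested accessions. V1 held 84.9 CPM of Mki67 against 452 and 381 CPM in V5 and V19. Mki67 encodes a proliferation marker that coats mitotic chromosomes and is the second longest tested member transcript.

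**Figure D2:**
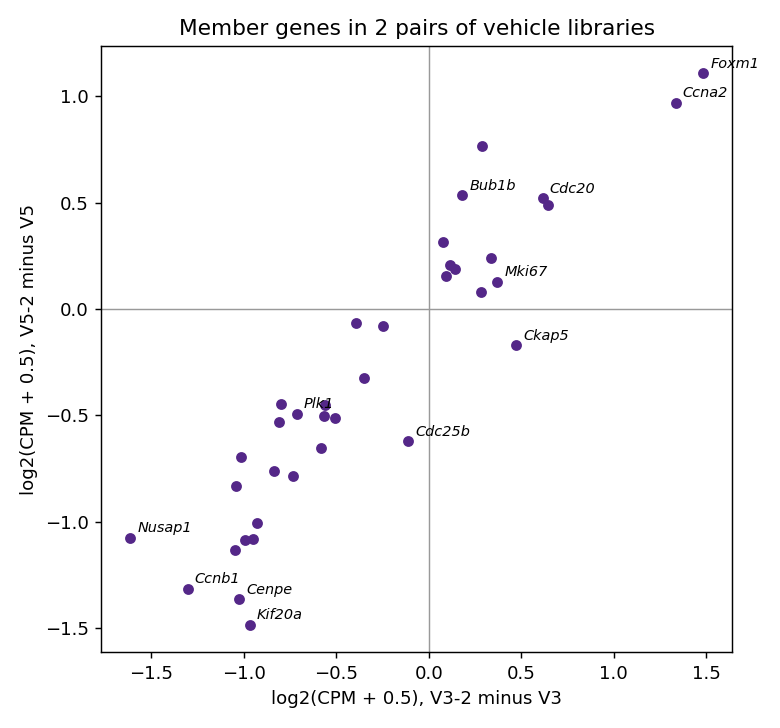
Each of the 37 points is a member, placed by the difference in log2(CPM + 0.5) between V3-2 and V3 (x axis) and between V5-2 and V5 (y axis). 36 points lie on the lower left or upper right side of the zero lines.

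Against WT, the members were mostly higher in IDH2-FLT3 vehicle, and fewer passed the test in TET2-FLT3 vehicle. These comparisons ask how LSK cells of each leukemia model differ from normal ones, and they share the WT libraries. In IDH2-FLT3 vehicle 10 of 37 members rose and 0 fell at an adjusted p under 0.05 (27.0%), while of all 11830 tested accessions 20.5% were called, 10.1% as higher and 10.4% as lower. The 10 were the checkpoint genes Bub1b and Cdc20, the kinases Plk1 and Aurkb, the kinesins Kif2c, Kif4 and Kif23, the spindle genes Tacc3 and Dlgap5, and Anln. The median log2 fold change was 0.63 over the members and 0.025 over all tested accessions, and 35 of 37 members were above 0. The groups did not overlap for 14 members that were higher and for Cdc25b, which was lower, against 17.1% and 20.0% of all tested. In TET2-FLT3 vehicle 2 members rose, Cdc20 and Cks2, and 0 fell, where 10.1% of all tested accessions were called, 4.43% as higher and 5.71% as lower. The median was 0.42 over members and 0.071 over all, and 28 of 37 members were above 0. An unadjusted p under 0.05 was found for 13 members and for 3209 of all 11830 tested accessions. For 6 members all TET2-FLT3 vehicle libraries exceeded all WT libraries, against 6.98% of all tested.

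The counts of calls moved with single libraries and with the scaling. Without V3 the IDH2-FLT3 count was 3, without V3-2 it was 5 and without wt1 it was 6. In these fits, in that order, 642, 769 and 786 of all 11830 accessions were called as higher, against 1195 with all libraries. With library totals in place of TMM factors the count of members was 3, where 587 of all accessions were higher and 1669 lower. With that scaling the median of all accessions in this comparison was -0.24, against 0.025 with TMM, and it left the members' median less that of all accessions at 0.58, against 0.60 with TMM. In TET2-FLT3 vehicle the count was 6 without V5-2, 0 without wt1 or wt4, and 1 without wt2, wt3 or V19. Of all accessions 611, 245, 227, 333, 203 and 603 were called as higher in these fits, in that order, against 524 with all libraries. For IDH2-FLT3 vehicle, Bub1b alone was called in all 7 exclusions of a library and all 10 other settings. With V3-2 and V5-2 left out, an alternative added after seeing the data, 7 members rose in IDH2-FLT3 vehicle where 7.77% of all accessions were higher. In TET2-FLT3 vehicle 7 then rose as well, Ccnb1, Ccnb2, Cdk1, Cks1b, Cks2, Cdc20 and Hmmr, where 6.64% of all were higher.

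Markers of other cell types moved in the same comparisons. In IDH2-FLT3 vehicle 10 of 12 granulocyte-monocyte markers rose, and their summed level ran from 21209 to 113069 CPM against 2665 to 13987 in WT, with none of the 12 at 0 in every library. Stem cell markers fell in 6 of 8 tested, from a sum of 819 to 1304 in WT to 42.8 to 160.0, with Tek and Ly6a among those at 0 throughout. In TET2-FLT3 vehicle 1 of 12 granulocyte-monocyte markers rose and 3 of 8 stem cell markers fell, with sums of 6579 to 11739.8 and 249.4 to 479 CPM. In both models 9 of 10 tested erythroid and 9 of 9 tested B cell markers fell, the erythroid sum from at least 123 CPM in WT to at most 12.9, and the B cell sum from at least 526 to at most 111. Hbb-b1 and Hba-a1 were at 0 throughout. Of the T and NK cell markers 5 of 7 tested fell in IDH2-FLT3 vehicle and 2 in TET2-FLT3 vehicle, with Klrb1c at 0 throughout. Their sums ran from 477 to 1882 CPM in IDH2-FLT3 vehicle, 242 to 2124 in TET2-FLT3 vehicle and 841 to 1310.4 in WT. Those sums were nearly all Nkg7, since no other marker of the list had a mean count above 20.6. Mature neutrophil markers rose in 3 of 8 tested in IDH2-FLT3 vehicle, and Itgam was at 0 throughout. Their sums ran from 823 CPM in V9 to 23849.8 in V3, against 1542 to 3910 in WT. No tested marker of this list had all IDH2-FLT3 vehicle libraries above all WT libraries. In TET2-FLT3 vehicle 0 of 8 passed edgeR's test (2 at an unadjusted p under 0.05, 1 by DESeq2). Without V3-2 and V5-2 the counts for granulocyte-monocyte and stem cell markers were the same. In IDH2-FLT3 vehicle 2 mature neutrophil markers then rose and 8 erythroid markers fell. The part of these shifts in the members' levels was not tested.

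**Figure D3:**
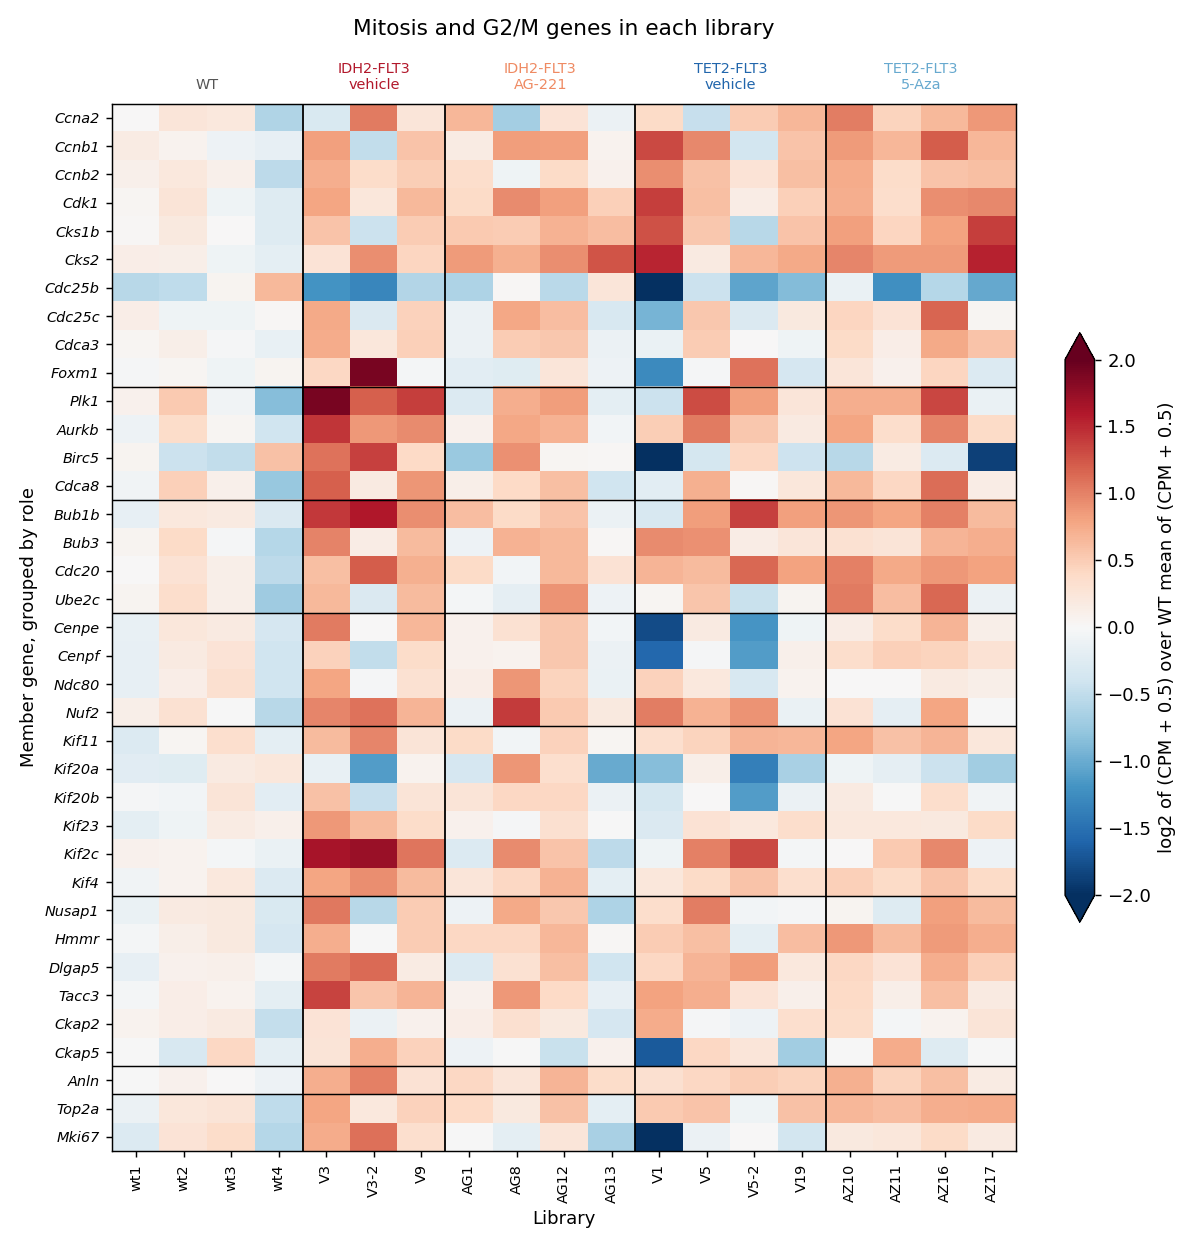
Colour gives log2 of (CPM + 0.5) over the WT mean of (CPM + 0.5) for the 37 tested members (rows, grouped by role, black lines between roles) in each of the 19 libraries (columns). Plk1, Bub1b and Kif2c are above the WT mean in all 3 IDH2-FLT3 vehicle libraries, and V1, V3-2 and V5-2 show patterns of their own.

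Among the cyclins, Cdk1 and their regulators, Cks2 rose in TET2-FLT3 vehicle and none of the 10 passed the test in IDH2-FLT3 vehicle. Cks2 encodes a small subunit of CDK complexes. It stood at 23.6, 23.5, 20.3 and 18.6 CPM in WT and 26.2, 41.3 and 29.0 CPM in IDH2-FLT3 vehicle. TET2-FLT3 vehicle gave 62.7, 24.4, 34.5 and 36.8 CPM, 5-Aza 42.8, 39.0, 39.0 and 63.7 CPM and AG-221 39.4, 35.5, 41.5 and 51.9 CPM. Every leukemic library was above every WT library. The log2 fold change against WT was 0.88 ± 0.28 (SE), adjusted p = 0.0471 in TET2-FLT3 vehicle by edgeR's quasi-likelihood test, the source of all adjusted p given here, and 6 of 8 exclusions of a library ended that call. In IDH2-FLT3 vehicle it was 0.58 ± 0.29 (SE), adjusted p = 0.165. Its paralog Cks1b stood at 205, 229.9, 204 and 168 CPM in WT and 299.9, 150.3 and 287 in IDH2-FLT3 vehicle. The treated and TET2-FLT3 groups gave 289.7, 287, 328 and 309 with AG-221, 486, 292, 137 and 299 in TET2-FLT3 vehicle and 355, 272, 354 and 524 with 5-Aza. V3-2 and V5-2 were below all WT libraries, and the other leukemic libraries were above them. The change was 0.59 ± 0.31 (SE), adjusted p = 0.220 in TET2-FLT3 vehicle, and without V3-2 and V5-2 it was 0.86 ± 0.24 (SE), adjusted p = 0.0295.

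Cdk1 itself read 234, 273, 215 and 190.4 CPM in WT and 392, 266 and 357 in IDH2-FLT3 vehicle. It read 299, 441, 402 and 317 with AG-221, 594, 347, 254 and 318 in TET2-FLT3 vehicle and 378, 289.6, 433 and 443 with 5-Aza. The AG-221 and 5-Aza libraries were all above WT, and V3-2 and V5-2 fell within the WT range. The change against WT was 0.57 ± 0.28 (SE), adjusted p = 0.150 in IDH2-FLT3 vehicle and 0.73 ± 0.26 (SE), adjusted p = 0.0780 in TET2-FLT3 vehicle. Ccnb1 read 72.2, 67.9, 60.02 and 57.7 CPM in WT and 114, 45.8 and 95.9 in IDH2-FLT3 vehicle. The remaining Ccnb1 values were 72.1, 116, 115 and 67.7 with AG-221, 162, 125, 50.1 and 96.3 in TET2-FLT3 vehicle and 117, 102, 149.6 and 102 with 5-Aza. All leukemic libraries but V3-2, V5-2, AG1 and AG13 were above all WT libraries. The change of Ccnb1 in TET2-FLT3 vehicle was 0.75 ± 0.32 (SE), adjusted p = 0.132, and without V3-2 and V5-2 1.01 ± 0.24 (SE), adjusted p = 0.0149.

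The second B-type cyclin, Ccnb2, had 165, 177, 163 and 106 CPM in WT and 253, 198 and 216 CPM in IDH2-FLT3 vehicle. It had 290.4, 231, 184 and 233 CPM in TET2-FLT3 vehicle, 257, 196, 226 and 233 with 5-Aza and 195, 144, 200.5 and 162 with AG-221. Both vehicle groups lay above WT without overlap, yet neither change passed the test, at 0.54 ± 0.23 (SE), adjusted p = 0.0972 and 0.62 ± 0.21 (SE), adjusted p = 0.0678. Ccna2 had 109.6, 130.2, 126 and 72.0 CPM in WT and 88.8, 225 and 130.3 in IDH2-FLT3 vehicle. It had 174, 68.4, 132 and 101 with AG-221, 144, 79.5, 156 and 174 in TET2-FLT3 vehicle and 224, 149.6, 172 and 201 with 5-Aza. All groups but 5-Aza overlapped WT, and V3-2 held the highest Ccna2 value of all 19 libraries.

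Cdc25b, a phosphatase that activates Cdk1, was the only member with all IDH2-FLT3 vehicle libraries below WT. Its levels were low, with a mean of 14.6 counts, at 1.07, 1.13, 1.90 and 3.14 CPM in WT and 0.506, 0.433 and 1.04 CPM in IDH2-FLT3 vehicle. They were 1.01, 1.85, 1.09 and 2.25 with AG-221, 0, 1.22, 0.615 and 0.768 in TET2-FLT3 vehicle and 1.62, 0.485, 1.06 and 0.632 with 5-Aza. The change was -1.46 ± 0.74 (SE), adjusted p = 0.170 in IDH2-FLT3 vehicle and -1.41 ± 0.67 (SE), adjusted p = 0.181 in TET2-FLT3 vehicle, and the WT libraries themselves spanned a wide range. Foxm1 had 47.3, 49.4, 45 and 49.96 CPM in WT and 64.2, 180.2 and 46.5 in IDH2-FLT3 vehicle. It had 41.4, 40.5, 56.7 and 44.7 with AG-221, 19.6, 47.3, 103 and 37.8 in TET2-FLT3 vehicle and 56.9, 50.9, 64.8 and 39.6 with 5-Aza. V3-2 and V5-2 held the 2 highest values, and V9 fell within the WT range. The change in IDH2-FLT3 vehicle was 1.02 ± 0.43 (SE), adjusted p = 0.0971, and without V3-2 and V5-2 it was 0.22 ± 0.29 (SE), adjusted p = 0.629. Of the other 2 members of this class, Cdc25c, a second phosphatase of Cdk1, had group means from 36.1 ± 15.0 (TET2-FLT3 vehicle) to 53.4 ± 19.8 CPM (5-Aza). Cdca3, which promotes mitotic entry, had means from 169.7 ± 13.5 (WT) to 239 ± 42.1 CPM (IDH2-FLT3 vehicle) and did not overlap WT in IDH2-FLT3 vehicle, with 0.50 ± 0.24 (SE), adjusted p = 0.150.

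Among the mitotic kinases and the chromosomal passenger complex, Plk1 and Aurkb rose in IDH2-FLT3 vehicle. Plk1 encodes a kinase that acts from mitotic entry to cytokinesis. It stood at 56.4, 76.2, 50.4 and 29.3 CPM in WT and at 199.6, 122 and 139 CPM in IDH2-FLT3 vehicle. It stood at 43.9, 88.2, 94.7 and 46.5 with AG-221, 39.1, 132, 93.9 and 63.0 in TET2-FLT3 vehicle and 88.4, 87.7, 135 and 48.5 with 5-Aza. All 3 IDH2-FLT3 vehicle libraries exceeded every WT and every AG-221 library, while both TET2-FLT3 groups overlapped WT. The fitted fold change against WT was 2.89, a log2 fold change of 1.53 ± 0.41 (SE), adjusted p = 0.0125. The call ended without V3, at an adjusted p of 0.0648, and held in the 10 other settings. Aurkb, the kinase of the passenger complex, stood at 122, 170.2, 135 and 99.5 CPM in WT and 356, 239.8 and 254 CPM in IDH2-FLT3 vehicle. It stood at 139.7, 226, 214 and 127 with AG-221, 185, 272, 192 and 149.7 in TET2-FLT3 vehicle and 227, 168, 262 and 172 with 5-Aza. Again every IDH2-FLT3 vehicle library was above all WT and all AG-221 libraries. The log2 fold change was 1.10 ± 0.28 (SE), adjusted p = 0.00885, and the adjusted p without V3 was 0.0585.

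Birc5, or survivin, and Cdca8, or borealin, are partners of Aurkb in that complex. Birc5 read 8.96, 6.27, 5.94 and 13.1 CPM in WT and 18.7, 22.9 and 11.5 in IDH2-FLT3 vehicle. Its other values were 4.93, 16.6, 8.84 and 8.69 with AG-221, 0.545, 6.62, 11.6 and 6.33 in TET2-FLT3 vehicle and 5.66, 9.62, 6.98 and 1.98 with 5-Aza. V1 was the lowest of the 19 libraries and V3-2 the highest. The change in IDH2-FLT3 vehicle was 1.05 ± 0.62 (SE), adjusted p = 0.238. Cdca8 had means of 174 ± 57.2 CPM in WT, 307 ± 102 in IDH2-FLT3 vehicle and 204 ± 56.4 with AG-221. It had 204 ± 58.8 in TET2-FLT3 vehicle and 269 ± 80.0 with 5-Aza. Its change in IDH2-FLT3 vehicle was 0.82 ± 0.33 (SE), adjusted p = 0.0822, and with V3-2 and V5-2 left out it was 1.06 ± 0.34 (SE), adjusted p = 0.0425.

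Among the spindle checkpoint genes, the call of Bub1b in IDH2-FLT3 vehicle against WT stood in all 7 exclusions of a library and in the 10 other settings. Bub1b encodes BubR1, which holds Cdc20 inactive until chromosomes are attached. It stood at 80.4, 104, 102 and 74.0 CPM in WT and at 241, 273 and 172 CPM in IDH2-FLT3 vehicle. It stood at 139, 118, 135 and 82.7 with AG-221, 72.3, 161, 234 and 159 in TET2-FLT3 vehicle and 166, 156, 181 and 141 with 5-Aza. IDH2-FLT3 vehicle and 5-Aza lay above WT without overlap, the AG-221 libraries lay below all 3 vehicle libraries, and V1 alone kept TET2-FLT3 vehicle from clearing WT. The fitted fold change of IDH2-FLT3 vehicle against WT was 2.54, a log2 fold change of 1.34 ± 0.30 (SE), adjusted p = 0.00390. In TET2-FLT3 vehicle it was 0.80 ± 0.28 (SE), adjusted p = 0.0702, and without V1 1.04 ± 0.23 (SE), adjusted p = 0.0102. Bub3, which brings BubR1 to kinetochores, read 267, 333, 252 and 172 CPM in WT and 509, 285 and 396 in IDH2-FLT3 vehicle. It read 238, 415, 403 and 261 with AG-221, 494, 482, 284 and 304 in TET2-FLT3 vehicle and 317, 308, 411 and 423 with 5-Aza. V3-2 fell within the WT range, and the change in IDH2-FLT3 vehicle was 0.63 ± 0.30 (SE), adjusted p = 0.137.

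Cdc20, the activator of the anaphase-promoting complex, was the member called in both models. It stood at 74.3, 90.1, 80.0 and 51.0 CPM in WT, 112, 172 and 122 in IDH2-FLT3 vehicle and 119, 115, 165 and 129.8 in TET2-FLT3 vehicle. With treatment it stood at 96.7, 70.8, 116 and 90.1 (AG-221) and 148, 125, 135 and 129.8 (5-Aza). Both vehicle groups and 5-Aza were above WT without overlap, and AG-221 overlapped WT. The log2 fold change was 0.87 ± 0.23 (SE), adjusted p = 0.0134 in IDH2-FLT3 vehicle and 0.84 ± 0.22 (SE), adjusted p = 0.0212 in TET2-FLT3 vehicle. Without V3-2 and V5-2 these were 0.67 ± 0.23 (SE), adjusted p = 0.0535, and 0.73 ± 0.20 (SE), adjusted p = 0.0291. Ube2c, the ubiquitin-conjugating enzyme of the complex, read 175, 214, 181 and 102 CPM in WT and 263, 138 and 260.3 in IDH2-FLT3 vehicle. It read 164, 148, 313 and 156 with AG-221, 173, 247, 123 and 174 in TET2-FLT3 vehicle and 347, 259, 371 and 154 with 5-Aza. All groups overlapped WT, and the change in IDH2-FLT3 vehicle was 0.39 ± 0.35 (SE), adjusted p = 0.448.

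At the centromere and kinetochore none of the 4 tested members passed the test against WT. Cenpe, a kinetochore motor, read 136, 178, 172 and 119.7 CPM in WT and 312, 153 and 239.7 in IDH2-FLT3 vehicle. It read 160.1, 188, 220.7 and 146 with AG-221, 43.4, 171, 66.3 and 143 in TET2-FLT3 vehicle and 168, 195, 242 and 164 with 5-Aza. V1 and V5-2 were the 2 lowest libraries, and V3 and V9 were above all WT libraries. Cenpf, a large kinetochore and nuclear matrix protein, read 174, 222, 237 and 149 CPM in WT and 268, 139 and 253 in IDH2-FLT3 vehicle. It read 207, 204, 285 and 181 with AG-221, 65.7, 192, 90.2 and 209 in TET2-FLT3 vehicle and 251, 271, 265 and 238 with 5-Aza. The 5-Aza libraries were above all WT and all TET2-FLT3 vehicle libraries, and V1 and V5-2 were again lowest. Ndc80 and Nuf2 encode arms of the complex that grips microtubules. Nuf2 read 59.3, 68.2, 54.9 and 37.3 CPM in WT and 108, 117 and 87.9 in IDH2-FLT3 vehicle, without overlap. Its other values were 50.5, 146, 79.0 and 62.8 with AG-221, 112, 89.2, 103 and 50.2 in TET2-FLT3 vehicle and 66.98, 48.3, 95.6 and 54.8 with 5-Aza. The change in IDH2-FLT3 vehicle was 0.93 ± 0.34 (SE), adjusted p = 0.0584. Ndc80 had means from 63.2 ± 13.8 (WT) to 83.2 ± 23.9 CPM (IDH2-FLT3 vehicle) over all groups.

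Kinesins move along microtubules or take them apart, and 3 of the 6 rose in IDH2-FLT3 vehicle. Kif2c, a depolymerase at centromeres, stood at 1.30, 1.28, 1.16 and 1.05 CPM in WT and 4.81, 5.10 and 3.05 CPM in IDH2-FLT3 vehicle. It stood at 0.906, 2.77, 2.02 and 0.684 with AG-221, 1.09, 2.90, 3.73 and 1.15 in TET2-FLT3 vehicle and 1.21, 1.94, 2.81 and 1.08 with 5-Aza. The IDH2-FLT3 vehicle libraries lay above all WT and all AG-221 libraries, and the fitted fold change against WT was 3.59, a log2 fold change of 1.84 ± 0.56 (SE), adjusted p = 0.0254. Leaving out a library ended this call in 5 of 7 exclusions, and the gene averaged 30.5 counts. Kif4 stood at 53.2, 58.7, 64.8 and 46.2 CPM in WT and 96.4, 106 and 86.7 in IDH2-FLT3 vehicle. It stood at 66.3, 74.5, 90.8 and 48.7 with AG-221, 65.6, 72.7, 82.8 and 70.6 in TET2-FLT3 vehicle and 77.8, 73.2, 83.3 and 73.2 with 5-Aza. Both vehicle groups and 5-Aza lay above all WT libraries. The change was 0.79 ± 0.21 (SE), adjusted p = 0.0139 in IDH2-FLT3 vehicle, lost without V3-2 at an adjusted p of 0.0507.

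Kif23, the motor of the central spindle, stood at 111, 119.8, 143 and 136 CPM in WT and 234, 197 and 165 in IDH2-FLT3 vehicle. It stood at 136, 126, 159 and 126 with AG-221, 104, 156, 147 and 162 in TET2-FLT3 vehicle and 147, 148, 145 and 167 with 5-Aza. The IDH2-FLT3 vehicle libraries were above WT, AG-221 and TET2-FLT3 vehicle without overlap, 5-Aza was above WT, and V1 was the lowest library. The change was 0.64 ± 0.21 (SE), adjusted p = 0.0319, and 4 of 7 exclusions ended the call. Kif11, which slides spindle microtubules apart, read 138, 172, 211 and 146 CPM in WT and 259, 328 and 199 in IDH2-FLT3 vehicle. It read 217, 160.3, 229 and 171 with AG-221, 210.3, 227, 268 and 265 in TET2-FLT3 vehicle and 288, 249.3, 269 and 195 with 5-Aza. V9 fell within the WT range, and the change of 0.65 ± 0.24 (SE), adjusted p = 0.0544 did not pass the test. Kif20a, a motor of late mitosis with a mean of 9 counts, read 0.689, 0.679, 1.07 and 1.13 CPM in WT and 0.759, 0.144 and 0.962 in IDH2-FLT3 vehicle. It read 0.604, 2.08, 1.26 and 0.195 with AG-221, 0.273, 1.01, 0.0410 and 0.384 in TET2-FLT3 vehicle and 0.809, 0.728, 0.531 and 0.361 with 5-Aza, all overlapping WT. Kif20b had means from 158 ± 47.9 (TET2-FLT3 vehicle) to 239 ± 39.0 CPM (AG-221).

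Of the spindle and microtubule proteins, Tacc3 and Dlgap5 rose in IDH2-FLT3 vehicle. Tacc3, which binds and stabilises spindle fibres together with the microtubule polymerase Ckap5, stood at 134, 151, 146 and 121 CPM in WT and 353, 203 and 220.9 in IDH2-FLT3 vehicle. It stood at 147, 253, 181 and 123 with AG-221, 241, 228, 168 and 148 in TET2-FLT3 vehicle and 183, 150.2, 210.4 and 157 with 5-Aza. The IDH2-FLT3 vehicle libraries were above all WT libraries, with V3 the highest of the 19. The change was 0.91 ± 0.27 (SE), adjusted p = 0.0213, and 3 of 7 exclusions ended the call. Dlgap5, which bundles microtubules near chromosomes, stood at 42.0, 50.1, 50.9 and 46.3 CPM in WT and 98.1, 105 and 52.8 in IDH2-FLT3 vehicle. It stood at 38.9, 58.6, 72.4 and 35.8 with AG-221, 63.5, 75.9, 84.7 and 54.9 in TET2-FLT3 vehicle and 63.4, 57.5, 78.3 and 66.0 with 5-Aza. V9 was only just above the highest WT library. The change was 0.85 ± 0.27 (SE), adjusted p = 0.0323, and 6 of 7 exclusions ended the call.

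Hmmr, a spindle protein and hyaluronan receptor, read 120.2, 135, 142 and 98.2 CPM in WT and 205, 123 and 176 in IDH2-FLT3 vehicle. It read 166, 165, 198 and 125 with AG-221, 177, 188, 109 and 191 in TET2-FLT3 vehicle and 226, 192, 225 and 205 with 5-Aza. The 5-Aza libraries were above all WT and all TET2-FLT3 vehicle libraries, and V3-2 and V5-2 did not clear WT. Ckap2, a microtubule-bound protein, read 70.5, 73.6, 75.8 and 47.7 CPM in WT and 81.3, 61.9 and 71.4 in IDH2-FLT3 vehicle. It read 73.7, 83.6, 77.0 and 52.9 with AG-221, 113, 65.6, 62.5 and 84.5 in TET2-FLT3 vehicle and 86.3, 65.0, 70.0 and 79.8 with 5-Aza. Every group overlapped WT for this gene, and its change in IDH2-FLT3 vehicle was 0.10 ± 0.25 (SE), adjusted p = 0.806. Ckap5, with a mean of 22.6 counts, read 1.53, 1.13, 2.23 and 1.29 CPM in WT and 1.94, 2.88 and 2.33 in IDH2-FLT3 vehicle. It read 1.41, 1.54, 1.01 and 1.66 with AG-221, 0.136, 2.23, 1.93 and 0.768 in TET2-FLT3 vehicle and 1.54, 2.91, 1.21 and 1.53 with 5-Aza. V1 was the lowest library. Nusap1, a microtubule bundling protein, had means from 6.08 ± 1.08 (WT) to 8.71 ± 4.63 CPM (IDH2-FLT3 vehicle), with 0.51 ± 0.45 (SE), adjusted p = 0.440 in that comparison.

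The cytokinesis member Anln rose in IDH2-FLT3 vehicle, and neither Top2a nor Mki67 did. Anln stood at 71.8, 76.3, 72.2 and 67.2 CPM in WT and 119.6, 146 and 88.1 in IDH2-FLT3 vehicle. It stood at 95.8, 84.8, 115 and 93.1 with AG-221, 90.1, 95.7, 101 and 98.1 in TET2-FLT3 vehicle and 118, 98.5, 109 and 80.5 with 5-Aza. Every leukemic library was above every WT library. The change was 0.71 ± 0.20 (SE), adjusted p = 0.0189 in IDH2-FLT3 vehicle and 0.42 ± 0.19 (SE), adjusted p = 0.159 in TET2-FLT3 vehicle, and the first call ended without V3 or without V3-2. Top2a, the topoisomerase that untangles sister chromatids, read 838, 1063, 1087 and 640.1 CPM in WT and 1575, 1054 and 1244 in IDH2-FLT3 vehicle. It read 1198, 1037, 1357 and 795 with AG-221, 1309.8, 1342, 854 and 1367 in TET2-FLT3 vehicle and 1437, 1386, 1498 and 1513 with 5-Aza. The 5-Aza libraries were above all WT and all TET2-FLT3 vehicle libraries, and the change in IDH2-FLT3 vehicle was 0.51 ± 0.28 (SE), adjusted p = 0.196. Mki67 read 405, 596, 634 and 329 CPM in WT and 819, 1059 and 618 in IDH2-FLT3 vehicle. It read 488, 429, 583 and 313 with AG-221, 84.9, 452, 494 and 381 in TET2-FLT3 vehicle and 560.3, 572, 643 and 557 with 5-Aza. V9 fell within the WT range, and the change was 0.76 ± 0.40 (SE), adjusted p = 0.185 in IDH2-FLT3 vehicle and -0.48 ± 0.38 (SE), adjusted p = 0.433 in TET2-FLT3 vehicle, the latter -0.15 ± 0.27 (SE), adjusted p = 0.781 without V1.

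**Figure D4:**
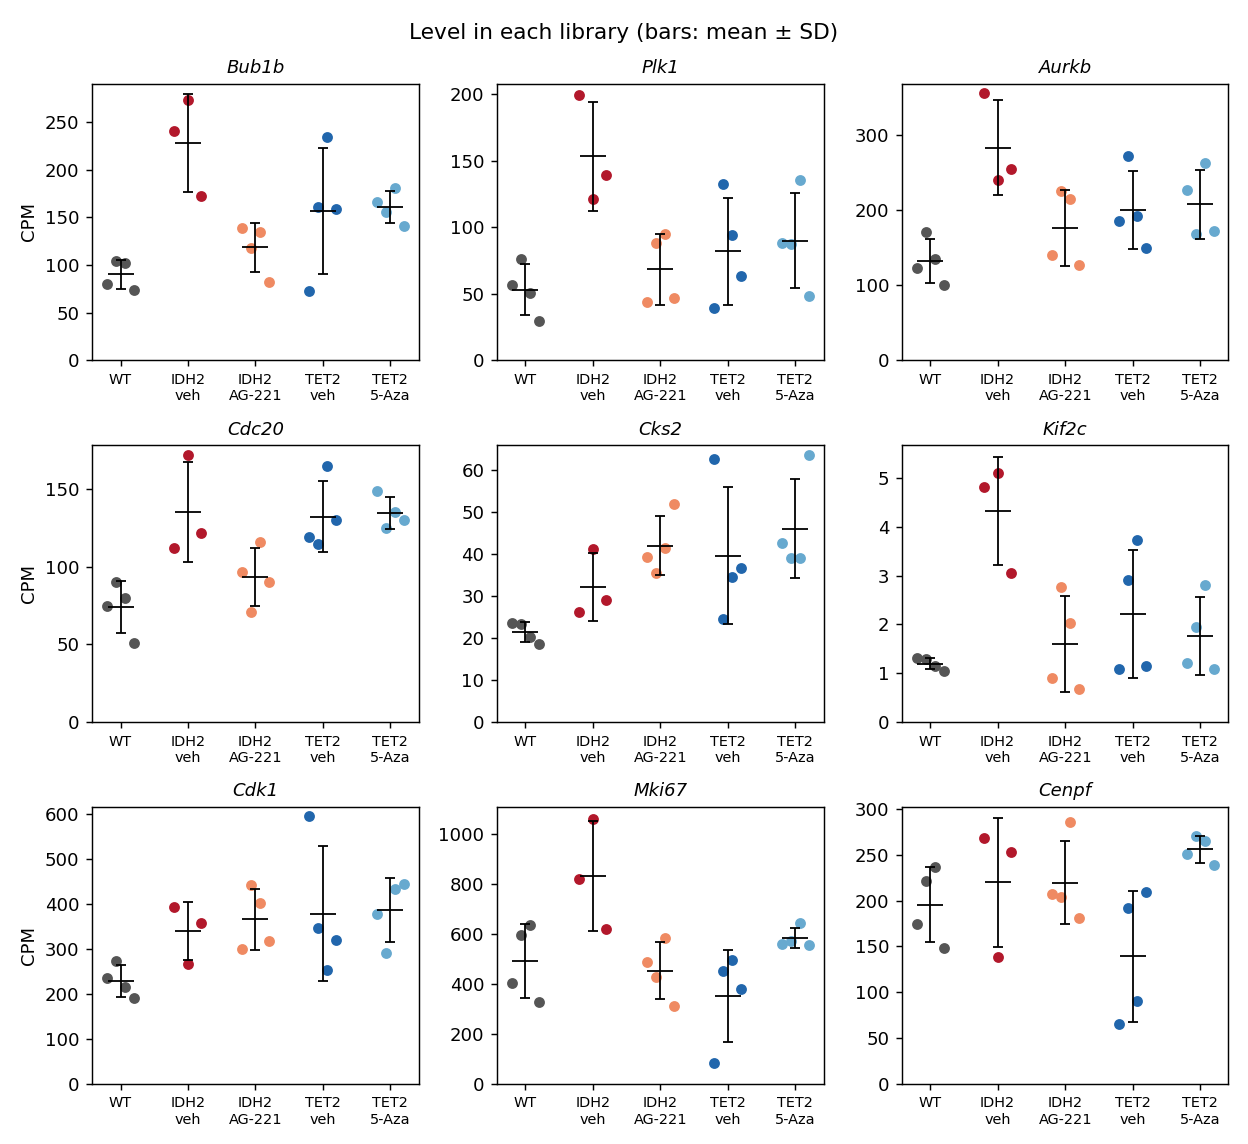
CPM of 9 members (panels, linear y axes from 0) in each library, by group on the x axis (veh, vehicle), with black bars for the mean ± SD. Bub1b, Plk1, Aurkb and Kif2c show IDH2-FLT3 vehicle above both WT and AG-221 without overlap, and V1 is the lowest TET2-FLT3 vehicle point for Mki67.

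With AG-221, the IDH2-FLT3 libraries were lower than with vehicle for most members, and 1 passed the test. This comparison asks what inhibition of mutant IDH2 changes in the leukemic LSK cells, and it shares the vehicle libraries with the comparison to WT, so that a high vehicle value enters both. Bub1b fell, with a fitted fold change of 0.518, a log2 fold change of -0.95 ± 0.30 (SE), adjusted p = 0.0471, and 0 members rose (1 of 37, where 9.68% of all tested accessions were called, 5.29% as lower and 4.39% as higher). The median was -0.30 over the members and -0.00023 over all, and 29 of 37 members were below 0. For 7 members all AG-221 libraries were below all vehicle libraries, against 10.8% of all tested: Bub1b, Plk1, Aurkb, Kif23, Kif2c, Mki67 and Ckap5. Plk1 gave -1.17 ± 0.41 (SE), adjusted p = 0.0684, Kif2c -1.42 ± 0.56 (SE), adjusted p = 0.0977, and Dlgap5 -0.73 ± 0.27 (SE), adjusted p = 0.0852. Foxm1 gave -1.08 ± 0.43 (SE), adjusted p = 0.101, and without V3-2 and V5-2 -0.30 ± 0.29 (SE), adjusted p = 0.543. The members with positive values included Cdc25b at 1.23 ± 0.74 (SE), adjusted p = 0.269, and Cks2 at 0.38 ± 0.30 (SE), adjusted p = 0.389. The Bub1b call ended in 6 of 7 exclusions, all but that of V9, and in the fit of the 2 groups alone. That fit of 2 groups called only 9 of all 11830 accessions as lower and 0 as higher. Leaving out V9 gave 3 member calls, where 1113 of all accessions were lower and 1095 higher. DESeq2 called 3 members, Bub1b, Plk1 and Kif23, where it called 1060 of all as lower and 1032 as higher. Granulocyte-monocyte markers fell in 5 of 12 with AG-221, to sums of 8561 to 21679 CPM, and stem cell markers rose in 4 of 8, to 338 to 594. T and NK cell markers rose in 4 of 7, erythroid markers in 3 of 10 and B cell markers in 1 of 9. Without V3-2 and V5-2 the 5 counts, in that order, were 2, 2, 0, 1 and 0. The part of these shifts in the members' change was not tested.

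With 5-Aza, no member passed the test against vehicle in TET2-FLT3. Of the 37 members 0 were called by edgeR, where 1.88% of all tested accessions were called, and 0 by DESeq2. An unadjusted p under 0.05 was found for 2 members and for 1482 of all 11830 tested accessions. The 2 were Cenpf, with 0.88 ± 0.31 (SE), adjusted p = 0.216, and Cenpe, with 0.86 ± 0.34 (SE), adjusted p = 0.270. In both, V1 and V5-2 were the low vehicle libraries. Without V1 Cenpf gave 0.64 ± 0.29 (SE), adjusted p = 0.352, and without V3-2 and V5-2 0.70 ± 0.29 (SE), adjusted p = 0.280. All 5-Aza libraries were above all vehicle libraries for Cenpf, Mki67, Hmmr and Top2a, against 2.83% of all tested. No member had all 5-Aza libraries below vehicle, against 4.26% of all tested. Mki67 gave 0.72 ± 0.38 (SE), adjusted p = 0.447, and without V1 0.39 ± 0.27 (SE), adjusted p = 0.586. Ube2c gave 0.66 ± 0.33 (SE), adjusted p = 0.418, and the lowest values were those of Nuf2 at -0.42 ± 0.32 and Kif2c at -0.35 ± 0.52. The median was 0.093 over the members and -0.051 over all tested. Erythroid markers rose in 6 of 10 tested with 5-Aza (3 without V3-2 and V5-2), to a sum of 36.8 to 88.1 CPM, and 0 of 12 granulocyte-monocyte markers passed edgeR's test (2 at an unadjusted p under 0.05, 1 by DESeq2). Stem cell markers rose in 1 of 8 (Slamf1) and B cell markers in 1 of 9 (Cd79a), and both counts were 0 without V3-2 and V5-2. The part of all these marker changes in the members' levels was not tested.

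**Figure D5:**
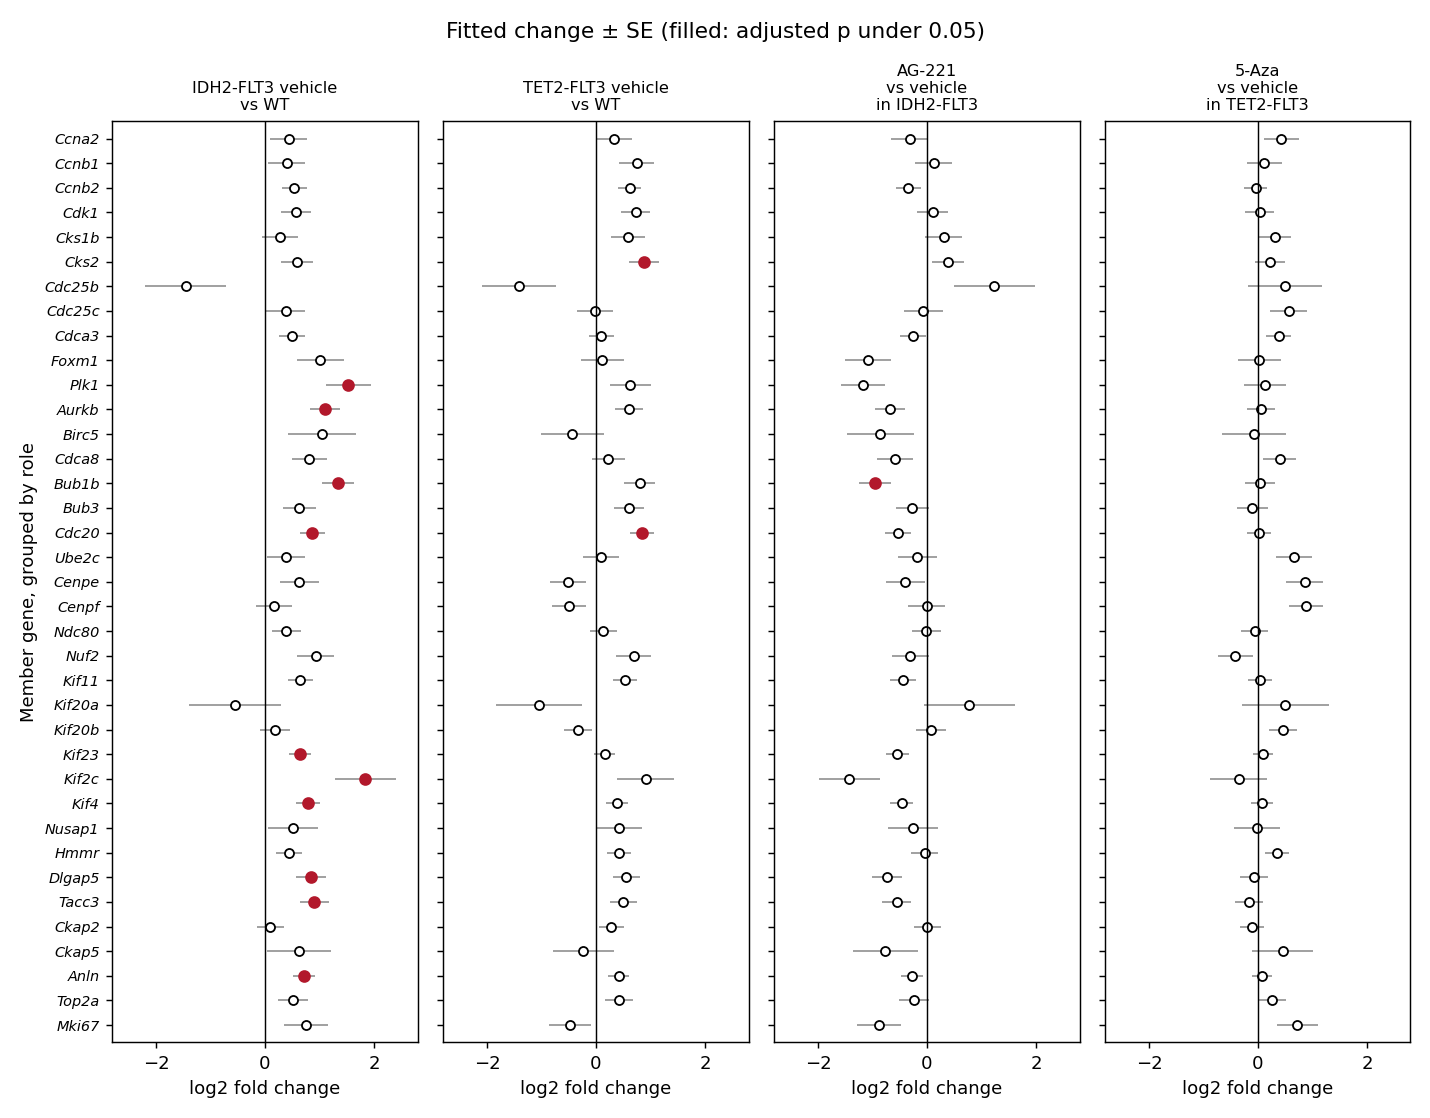
Log2 fold change (x axis) ± SE of the 37 tested members (y axis, grouped by role) in 4 comparisons, with filled red points for an adjusted p under 0.05. The first panel has 10 filled points, the second has Cks2 and Cdc20, the third has Bub1b and the last has none.

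Treated LSK cells were also set against WT, which asks how much of the difference remains after treatment. With AG-221, edgeR called 0 of 37 members against WT, where it called 2.71% of all tested accessions, 1.67% as lower. DESeq2 called 1, Cks2, where it called 211 of all as higher and 378 as lower. At an unadjusted p under 0.05 stood 3 members and 1524 of all 11830 tested accessions. Those 3 were Cks2 at 0.97 ± 0.28 (SE), adjusted p = 0.0681, Cdk1 at 0.68 ± 0.26 (SE), adjusted p = 0.223, and Anln at 0.44 ± 0.19 (SE), adjusted p = 0.320. Together with Cks1b, at 0.59 ± 0.31 (SE), adjusted p = 0.447, they were the 4 members for which all AG-221 libraries lay above WT, against 6.98% of all tested, and for 0 members they lay below WT, against 8.85%. The median was 0.26 over the members, with AG12 above all WT libraries for 33 members and AG13 for 5. With 5-Aza, Cdc20 and Cks2 were higher than in WT, at 0.86 ± 0.22 (SE), adjusted p = 0.0484, and 1.10 ± 0.28 (SE), adjusted p = 0.0458, where 1.72% of all tested were called. Each of these calls ended in all 8 exclusions of a library. For 16 members all 5-Aza libraries lay above all WT libraries, against 11.6% of all tested, and the median was 0.50 against -0.035 over all. They included Hmmr at 0.78 ± 0.23 (SE), adjusted p = 0.0849, Bub1b at 0.84 ± 0.28 (SE), adjusted p = 0.138, and Ccnb1 at 0.87 ± 0.32 (SE), adjusted p = 0.178. When 5-Aza and WT were fitted alone, 15 members rose, and 19.2% of all accessions were called in that fit, 8.28% as higher. Against WT, 9 of 9 B cell and 6 of 10 erythroid markers were lower with AG-221, and 8 of 9 B cell, 1 of 10 erythroid and 1 of 7 T and NK cell markers were lower with 5-Aza. The part of these differences in the members' values was not tested.

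Between the 2 models under vehicle, no member passed edgeR's test. Of the 37, edgeR called 0, where it called 4.28% of all tested accessions, 2.35% as lower. DESeq2 called 2, Cenpe and Mki67, where it called 444 of all 11830 as higher and 706 as lower. An unadjusted p under 0.05 was found for 6 members and for 2487 of all 11830 tested accessions. Cenpe was 1.15 ± 0.36 (SE), adjusted p = 0.0703 in IDH2-FLT3 less TET2-FLT3, and Mki67 1.24 ± 0.40 (SE), adjusted p = 0.0842. Without V1, these were 0.89 ± 0.32 (SE), adjusted p = 0.158, and 0.91 ± 0.29 (SE), adjusted p = 0.102. Birc5 gave 1.48 ± 0.62 (SE), adjusted p = 0.181, and on the other side Ccnb1 gave -0.35 ± 0.34 (SE), adjusted p = 0.567, and Cks1b -0.31 ± 0.33 (SE), adjusted p = 0.606. For Birc5, V1 was the lowest library of all, at 0.545 CPM, and V3-2 the highest, at 22.9 CPM. Mki67, Kif23 and Kif4 were the members whose groups did not overlap, all higher in IDH2-FLT3, against 4.07% of all tested as higher and 4.51% as lower. The count of calls was 3 without V5-2 and 1 without V9 or without V5. Of all accessions 768, 507 and 339 were called as higher in these fits, in that order, against 228 with all libraries. Of the markers, 9 of 12 granulocyte-monocyte and 5 of 8 mature neutrophil ones were higher in IDH2-FLT3 vehicle than in TET2-FLT3 vehicle, while 3 of 8 stem cell and 1 of 9 B cell ones were lower (3, 1, 2 and 0 without V3-2 and V5-2). The mature neutrophil sum ran from 185 to 2178 CPM in TET2-FLT3 vehicle, and the granulocyte-monocyte and stem cell sums are those given above for each vehicle group. The part of these differences in the members' values was not tested.

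The drug responses of the 2 models were compared directly, as the AG-221 change less the 5-Aza change. Neither edgeR nor DESeq2 called any member (0 of 37), where edgeR called 0.228% of all tested accessions. At an unadjusted p under 0.05 stood 6 of the 37 members and 1831 of all 11830 tested accessions. The 6 were Mki67 at -1.60 ± 0.55 (SE), adjusted p = 0.194, Cenpe at -1.25 ± 0.49, Bub1b at -0.99 ± 0.41, Plk1 at -1.30 ± 0.55, Kif23 at -0.63 ± 0.28 and Cdca8 at -0.99 ± 0.45. All 6 were more negative with AG-221, and the median over the members was -0.54 against 0.036 over all. V1 was the lowest TET2-FLT3 vehicle library for all 6, at 84.9 CPM for Mki67 and 43.4 CPM for Cenpe, and V5-2 held 66.3 CPM of Cenpe. The 6 values without V1, V3-2 or V5-2 are not given here. Leaving out any single library also gave 0 called members. A difference in how these members respond to the drugs was thus not called at this depth and spread. AG-221 was given in IDH2-FLT3 alone and 5-Aza in TET2-FLT3 alone, so drug and model cannot be told apart here.

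Other genes of the same process were read from a second list, of 63 further mitosis genes with 55 tested. Of these 12 rose and 0 fell in IDH2-FLT3 vehicle, where 10.1% of all tested accessions rose and 10.4% fell, among them Ccnf, which encodes cyclin F, at 1.30 ± 0.29 (SE), adjusted p = 0.00430, Depdc1b at 1.76 ± 0.40 (SE), adjusted p = 0.00431, and Ncaph, a condensin subunit, at 1.24 ± 0.30 (SE), adjusted p = 0.00671. In TET2-FLT3 vehicle, where 4.43% of all tested rose, 1 did, the kinase gene Melk at 0.87 ± 0.22 (SE), adjusted p = 0.0188. Without V3-2 and V5-2 the counts were 9 and 7, where 7.77% and 6.64% of all accessions were higher. With AG-221 against vehicle 5 fell, where 5.29% of all tested did. Without V3-2 and V5-2 0 fell, where 162 of all 11830 did. Among the 5 were Arhgap11a at -1.002 ± 0.24 (SE), adjusted p = 0.0207, and Ccnf at -1.05 ± 0.29 (SE), adjusted p = 0.0311. With 5-Aza 0 passed the test by edgeR or DESeq2, and 3 had an unadjusted p under 0.05, as did 1482 of all tested. The S phase list, of 42 genes with 32 tested, had 7 that rose in IDH2-FLT3 vehicle, against the same 10.1%, among them Mcm2, of the replicative helicase, at 1.02 ± 0.29 (SE), adjusted p = 0.0188, and the polymerase gene Pold1 at 1.12 ± 0.28 (SE), adjusted p = 0.00955. In TET2-FLT3 vehicle 2 rose, against 4.43%, among them Pcna, the sliding clamp of DNA polymerase, at 0.83 ± 0.26 (SE), adjusted p = 0.0427. Without V3-2 and V5-2 these counts were 8 and 2. With AG-221 against vehicle 0 of the 32 S phase genes passed the test by edgeR and 4 fell by DESeq2, where 1060 of all 11830 did. An unadjusted p under 0.05 was found for 11 of them, and for 3541 of all tested. In AG-221 7 were lower without overlap, against 10.8% of all tested. The summed S phase level was 4382 ± 591 CPM in WT (SD, n = 4) and 6681 ± 559 in IDH2-FLT3 vehicle (n = 3). It was 5314 ± 865 with AG-221, 5878 ± 611 with 5-Aza and 5882 ± 409 in TET2-FLT3 vehicle (n = 4 each).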

How the data were processed

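Per the submitters' processing notes, reads of libraries made with a low-input SMARTer kit were aligned with STAR 2.4.0f1 to mm9 and counted with featureCounts of Subread 1.4.5-p1. Whether strand was used, and how reads shared by accessions were treated, is not given in the sources used here. The deposited values are raw counts per RefSeq accession and FPKM from the authors, whose annotation is not given in the sources used here. Of 33862 accessions, 189 had no gene name in the RefSeq and GENCODE name tables and held 3.47% of counts. The WT columns carry their replicate numbers, and the other columns were matched to a group only.

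Counts were fitted with edgeR 4.0.16 (limma 3.58.1, R 4.3.3): filterByExpr kept 11830 accessions, TMM factors scaled the libraries, and a quasi-likelihood model of 5 group means over 19 libraries (14 residual degrees of freedom) gave 8 comparisons, with Benjamini-Hochberg adjustment over all accessions kept and a threshold of 0.05. CPM uses TMM factors, and logs of single libraries add 0.5. DESeq2 1.42.0, limma on log2(FPKM + 1) and log2(FPKM + 0.1), other scalings and filters, and exclusions of a library were alternatives. The script was tested on simulated data. Members with full values are a core of cyclins, kinases and checkpoint genes, every called member, and the 3 smallest p per direction and comparison; all others are given by range. Members and lists were chosen with earlier results of these data known.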

Additional observations from a re-analysis of the deposited data

Results flagged for a closer look

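In 6 of 152 groups of 4 libraries, 1 library lay so far from the others that its gap to the nearest, as a share of the group's range, exceeded the 95% critical value of Dixon's test. Chance alone gives this in about 1 in 20 groups. Cks2 with 5-Aza was 63.7 CPM in AZ17 and 39.0 to 42.8 in the other 3 libraries. Kif23 with 5-Aza was also highest in AZ17, at 167 CPM against 145 to 148. Cdca3 in TET2-FLT3 vehicle was 242 CPM in V5 and 155 to 170.0 in the others. Ube2c with AG-221 was 313 CPM in AG12 and 148 to 164 in the others. V5-2 was the low library for Hmmr in TET2-FLT3 vehicle, at 109 CPM against 177 to 191, and for Top2a, at 854 CPM against 1309.8 to 1367.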

How the results depend on the processing

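No paired analysis was possible because the columns other than WT carry no replicate numbers of the labels. Leaving out 1 library at a time gave 3 to 12 called members for IDH2-FLT3 vehicle against WT (10 with all), 0 to 6 for TET2-FLT3 vehicle against WT (2), 0 to 3 for AG-221 against vehicle (1), 0 for 5-Aza-treated cells against WT (2) and 0 to 3 between the vehicle groups (0). Calls over all accessions moved in these exclusions too. Those higher in IDH2-FLT3 vehicle against WT ran from 642 without V3 to 1337 without V9. Those lower with AG-221 ran from 63 without V3-2 to 1113 without V9. Those higher in 5-Aza-treated cells against WT ran from 29 without AZ17 to 54 without AZ10, against 73 with all. For IDH2-FLT3 vehicle against WT the count of called members was 3 with library totals alone and 6 with no filter. With limma on log2(FPKM + 1) and log2(FPKM + 0.1) it was 4 and 3, and with V3 and V3-2, and V5 and V5-2, summed it was 5. Over all accessions 587, 1190, 560, 512 and 760 were higher in these fits, in that order, against 1195 in the main fit. Those lower numbered 1669, 1160, 2153, 2097 and 850, against 1233. The fit with no filter tested 21222 accessions and the others 11830. For TET2-FLT3 vehicle the count of members was 1 with DESeq2's size factors in edgeR, 0 with library totals alone and 1 with no filter. It was 0 with the compared groups alone, 4 with DESeq2, 0 with both limma fits and 7 without V3-2 and V5-2. Over all accessions 489, 284, 557, 424, 804, 304, 302 and 786 were higher, in that order, against 524 in the main fit. For AG-221 against vehicle the count of members was 3 with DESeq2. It was 0 with library totals alone, no filter, the compared groups alone, both limma fits, summed libraries, or V3-2 and V5-2 left out. Over all accessions 1060, 285, 654, 9, 312, 299, 107 and 162 were lower, in that order, against 626 in the main fit. For AG-221-treated cells against WT the count of members was 2 with the compared groups alone and 1 with DESeq2, limma on log2(FPKM + 1) or summed libraries. Over all accessions 361, 211, 111 and 155 were higher, in that order, against 123 in the main fit. For 5-Aza-treated cells against WT the count of members was 15 with the compared groups alone, 3 with DESeq2 and 1 with both limma fits. It was 0 with DESeq2's size factors, library totals alone or no filter. Over all accessions 980, 163, 75, 70, 64, 51 and 93 were higher, in that order, against 73 in the main fit. Between the vehicle groups the count of members was 1 with no filter and 2 with DESeq2, where 276 and 444 of all accessions were higher, against 228 in the main fit. No called member changed direction: of 257 recomputed values of single members, 144 kept direction and side of the threshold and 113 kept the direction alone. Each fit also gave 2 medians: that of the members, and the same less the median of all accessions. Of these 292 recomputed values, 284 moved by less than the spread between replicates and 8 by more, all 8 in comparisons with WT and under library totals alone or limma. Of the recomputed counts of calls, 86 stayed within a set ratio of the main count and 60 did not. The causes were not tested. The 8 members with few reads are limited by counts, not by spread.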

Other observations

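Genes that hold the cell cycle back or start it were read beside the mitotic genes. Of 14 tested CDK inhibitors, pocket proteins, D cyclins and their kinases, Cdkn1a and Cdkn2c rose in IDH2-FLT3 vehicle against WT, at 2.73 ± 0.84 (SE), adjusted p = 0.0270, and 3.90 ± 1.13 (SE), adjusted p = 0.0197 (edgeR). Both genes have 2 accessions, so their counts may miss reads, and their means were 8.79 counts for Cdkn1a and 122 for Cdkn2c. Cdkn1a was below 1 CPM in both groups, at 0.153, 0.0755, 0.0826 and 0.0806 in WT and 0.759, 0.865 and 0.481 in IDH2-FLT3 vehicle. Cdkn2c stood at 1.07, 1.81, 1.16 and 0.403 CPM in WT, 1.86, 46.8 and 1.28 in IDH2-FLT3 vehicle, 0.906, 1.0009, 0.926 and 0.293 with AG-221 and 1.91, 2.03, 42.0 and 2.21 in TET2-FLT3 vehicle, so that its high values are those of V3-2 and V5-2. Without them Cdkn2c gave 0.50 ± 0.59 (SE), adjusted p = 0.593 in IDH2-FLT3 vehicle against WT and 0.88 ± 0.53 (SE), adjusted p = 0.257 in TET2-FLT3 vehicle, while Cdkn1a gave 2.55 ± 0.80 (SE), adjusted p = 0.0390, and 1.91 ± 0.77 (SE), adjusted p = 0.0990. With all libraries both inhibitor genes also rose in TET2-FLT3 vehicle, at 3.09 ± 0.80 (SE), adjusted p = 0.0206, and 3.44 ± 1.08 (SE), adjusted p = 0.0468, together with Ccng1 at 0.73 ± 0.23 (SE), adjusted p = 0.0442. Cdkn1a encodes p21, an inhibitor of several CDKs, and Cdkn2c encodes p18, an inhibitor of Cdk4 and Cdk6. Cdk6 stood at 47.6, 58.0, 40.2 and 34.8 CPM in WT, 79.9, 82.9 and 79.7 in IDH2-FLT3 vehicle and 41.3, 31.0, 40.7 and 18.2 with AG-221. With AG-221 against vehicle Cdk6 fell, at -1.30 ± 0.39 (SE), adjusted p = 0.0401, and Cdkn2c fell, at -4.39 ± 1.17 (SE), adjusted p = 0.0270. Without V3-2 and V5-2 these were -1.30 ± 0.43 (SE), adjusted p = 0.0943, and -1.01 ± 0.60 (SE), adjusted p = 0.314. Cdkn1b, which encodes p27, gave -1.02 ± 0.53 (SE), adjusted p = 0.179 in IDH2-FLT3 vehicle against WT, and the D cyclin gene Ccnd2 gave -0.67 ± 0.40 (SE), adjusted p = 0.239. DESeq2 called Cdkn1a as higher and Ccnd1 as lower in IDH2-FLT3 vehicle against WT, Cdkn1a and Ccng1 as higher in TET2-FLT3 vehicle against WT, and Cdk6 as lower with AG-221 against vehicle, and no other gene of the list in these 3 comparisons, so that it called Cdkn2c in none of them.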
